A study of Mus musculus with 6 samples.

Results

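Odd-alone peaks are chromatin regions that a Bloodlinc pulldown with the odd-numbered probes returned and that no other Bloodlinc pulldown list held. They were chosen by position: a peak of the odd-probe list was a member when it overlapped, by 1 bp or more, no peak of the even-probe list and no peak of the pulldown whose label names no probe pool. By this rule 17602 of the 20596 odd peaks were members, among 39762 peaks in all 6 lists. The other 2994 odd peaks are called shared here. Of these, 2523 met an even peak only, 267 met an even and a pulldown peak, and 204 met a pulldown peak only.

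Bloodlinc, or alncRNA-EC7, is a long noncoding RNA made from a super-enhancer, a dense cluster of enhancers, and the series title places its action on red cell development in trans, that is, away from its own locus. ChIRP-seq (chromatin isolation by RNA purification) fishes for such an RNA on crosslinked chromatin with biotinylated antisense oligonucleotides and sequences the DNA that comes along. The probes are split into even- and odd-numbered pools because an oligonucleotide can also capture DNA or other RNAs that resemble its own target. A region bound by the RNA should come back with both pools, whereas a region caught through a single oligonucleotide should come back with the pool that holds it. Regions seen with 1 pool can also be regions that the other library missed.

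MEL cells, a mouse erythroleukaemia line that DMSO drives towards red cell features, were used throughout, at 40000000 cells per library, and the labels of all 6 libraries give day 5 of 2% DMSO. The groups were the pulldown without a named pool, the even probes, the odd probes, a control without probes, an RNase control and an input, with 1 library each. The peak names of the input carry the tag MELd0, so its day is uncertain. As each condition has a single library, no replicate test could be made and the values describe these libraries alone. Intervals in parentheses are 95% intervals that cover only the counting of peaks.

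The word alone refers to the deposited lists. Names of the peaks carry running numbers that follow position along the chromosomes without a break in order. These numbers reach 120836 in the odd list, which holds 17.0% as many peaks, and 124782 in the even list, which holds 14.5% as many. For 17557 odd-alone peaks a listed even peak lay on both sides on the same chromosome, a median of 204 kb apart. Between those flanking even peaks a median of 10 even numbers was missing (quartiles 5 and 16, highest 68). Only 392 odd-alone peaks, or 2.23% (2.02% to 2.46%), sat between even peaks with consecutive numbers. If each number stands for a called peak, unlisted even calls lie in the stretch around most odd-alone peaks, and whether any overlaps the odd-alone peak cannot be told from the lists. The pulldown list, which holds 517 peaks numbered up to 27800, was sparser still: consecutive pulldown numbers flanked 3 of the 15687 odd-alone peaks that had a pulldown peak on both sides.

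The 392 odd-alone peaks with no even number missing between their flanks are the ones for which, on that reading, no unlisted even call lies between the flanks. Their median score was 1139 (1067 to 1223), and their median width was 426 bp. They lay a median of 5.42 kb from an even peak, and their flanking even peaks were a median of 26.6 kb apart; the choice of this set favours such short stretches. The highest-scoring were chr10:24256480-24257117 with a score of 3818, chr16:47960175-47960778 with 3771 and chr5:97762669-97763236 with 3560, which held ranks 210, 242 and 440 in the odd list. Their nearest even peaks lay 5776, 15964 and 3004 bp away. This set and these peaks were chosen after the numbering was seen.

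**Figure D1:**
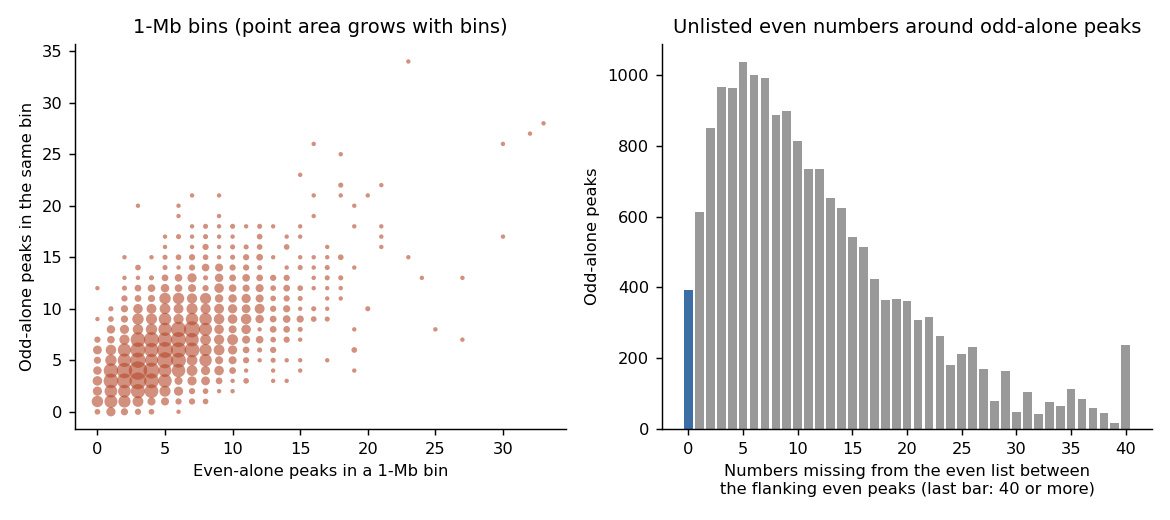
Left, the number of odd-alone peaks against the number of even-alone peaks in the same 1-Mb bin, for 2535 bins, with point area growing with the number of bins at that position. Right, the number of odd-alone peaks (vertical axis) by how many numbers are missing from the even list between the flanking even peaks (horizontal axis), with the 392 peaks at 0 in blue and a median of 10.

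Scores are whole numbers given by the authors to each peak, on a scale that was not given in the sources used here. They serve only to rank peaks within the odd list. Odd-alone peaks had scores from 357 to 4712, with a median of 1164 (1145 to 1168) and quartiles of 837 and 1801. The shared odd peaks had a median of 1093.5 (1067 to 1120), and this value joined classes that differed widely. Odd peaks that met an even peak only had a median score of 1027 (992 to 1047), those that met both an even and a pulldown peak 1487 (1358 to 1603), and those that met the pulldown only 3622.5 (3537 to 3747). The odd-alone median lay above that of the even-only class and below those of both classes that met the pulldown. How peaks were chosen for the pulldown list was not given. The intervals of the 4 medians did not overlap. Scores were tied in many places: the 17602 odd-alone peaks had 1847 distinct scores, and the most frequent, 763, was held by 245 of them.

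The share of odd-alone peaks changed little over most of the score range and moved at the top. Over the whole odd list it was 85.5%, which the rule itself sets. In the highest 5% of odd peaks by score it was 81.1% (78.5% to 83.4%), in the next 5% it was 91.2% (89.3% to 92.8%), and from band 5 downwards it lay between 83.4% and 86.8%. The classes exchanged places at the top. Even-only peaks made up 1.9% of the highest 1000 odd peaks and 16% of them met the pulldown only, whereas over the whole list these classes took 12.2% and 0.990%. None of the 10 highest odd peaks was odd-alone. Of the highest 100, 50 were odd-alone, 45 met the pulldown only, 3 met an even and a pulldown peak and 2 met an even peak only. Of the highest 500, 363 were odd-alone, and of the highest 1000, 808.

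**Figure D2:**
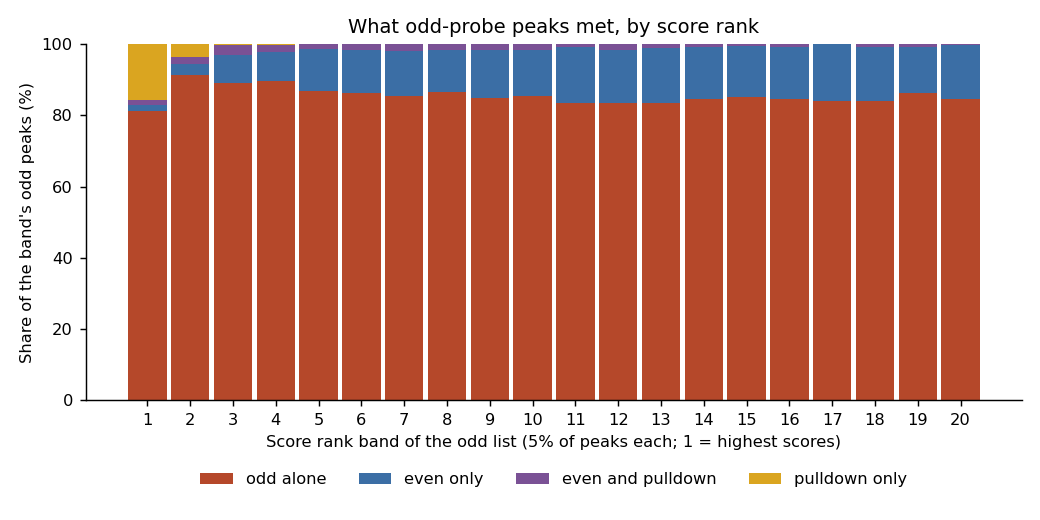
Share of odd peaks (vertical axis, %) that were odd-alone or met an even peak, both lists or the pulldown only, in 20 bands of score rank with 5% of the odd peaks each (horizontal axis, band 1 holds the highest scores). Pulldown-only peaks make up 15.7% of band 1, odd-alone peaks reach their highest share, 91.2%, in band 2, and even-only peaks gain towards lower ranks.

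Many odd-alone peaks scored as high as pulldown-only peaks. The rule by which the pulldown list came to hold 517 peaks, numbered up to 27800, was not given. Whether that rule drew on odd-probe signal, and so bears on the odd scores of this class, cannot be told from the lists. All 204 pulldown-only peaks scored 2016 or more, and 3509 odd-alone peaks, 19.9% of the members, did so too. At or above 3622.5, the median of the pulldown-only class, there were 260 odd-alone peaks and 102 pulldown-only peaks, against 15 odd peaks that met an even peak. These 260 had a median width of 609 bp against 622.5 bp for the pulldown-only peaks above the same score, and their median distance to an even peak was 42.7 kb against 37.7 kb.

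The highest odd-alone peak, ranked 11th of all odd peaks, was chr10:119155723-119156382 (mm9), 660 bp wide with a score of 4712. The nearest even peak lay 10.4 kb away and ranked 2508th in the even list, and 2 even numbers were missing between the flanking even peaks, which were 49.2 kb apart. Next came chr11:115918280-115918865 with a score of 4542 and an even peak at 17.5 kb, and chr3:88216655-88217240 with a score of 4529, which had another odd peak 3.36 kb away. The peaks chr5:152454277-152454898 and chr3:105076327-105076935 scored 4463 and 4439, with an even peak at 12.5 kb and 14.4 kb. A score of 4418 was shared by chr11:9170729-9171403, chr4:141572557-141573239 and chr7:19811233-19811694, the last of them only 462 bp wide. The list of 10 ended with chr5:23309648-23310185 at 4391 and chr11:20591606-20592211 at 4381. No pulldown peak lay closer to any of these 10 than 320 kb, the distance from the last of them. Over all odd-alone peaks the nearest pulldown peak lay at a median of 1944 kb, with a lower quartile of 621 kb. All of the 10 highest had missing even numbers between their flanks, from 2 to 24. Chromosome 11, from which Bloodlinc is transcribed, held 3 of the 10, and these were also its 3 highest members. It held 5 of the 100 highest members and 977 of all 17602, or 5.55%.

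The 100 highest odd-alone peaks, with scores of 3888 to 4712, lay on 20 chromosomes. Chromosome 1 held 12 of them and chromosome 3 held 11, and no other chromosome had more than 8. Of all odd-alone peaks, chromosome 1 held 7.52% and chromosome 3 held 6.71%. Their widths ran from 462 to 1062 bp with a median of 619 bp. An even peak lay within 10 kb of 16 of them and another odd peak within 10 kb of 20. Over all odd-alone peaks these shares were 17.0% and 18.8%. No pulldown peak and no control peak came within 10 kb of any of the 100. Such neighbours were rare among all odd-alone peaks too, at 0.54% for pulldown peaks and 0.312% for control peaks. At least 1 even number was missing between the flanks of each of them that had a listed even peak on both sides.

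Widths of odd-alone peaks ran from 210 to 1451 bp, with a median of 439 bp (438 to 441) and quartiles of 392 and 505 bp, and together they covered 7988 kb. Even-only peaks had a median of 450 bp (447 to 454), peaks that met both lists 490 bp (477 to 503) and pulldown-only peaks 602 bp (593 to 616). A wider peak has more positions at which it can overlap another, so width and membership are tied by the rule. When the odd peaks were cut into 5 groups of like size by width, 89.3% of the narrowest group (210 to 385 bp) were odd-alone, against 81.9% and 83.0% of the 2 widest groups. The 3 widest odd-alone peaks were chr4:131165013-131166463 (1451 bp, score 1407), chr16:22816417-22817621 (1205 bp, score 1501) and chr15:58896787-58897941 (1155 bp, score 1753). None of these 3 was among the 5000 highest scores. The first lay between consecutive even numbers, 4.33 kb from an even peak.

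Width and score went together, with Spearman's rho 0.730 over the 17602 odd-alone peaks and 0.685 over the 2994 shared ones. These are correlations across peaks of 1 library, which share their caller and depth. The median score of odd-alone peaks lay above that of even-only peaks in all 5 width groups. In the narrowest the medians were 782 and 763, in the middle group (423 to 464 bp) 1172 and 1009, and in the widest (528 to 2744 bp) 2458 and 1676. No intervals were taken for these medians, and the narrowest group held 434 even-only peaks. The gap between the classes was thus wider among broad peaks.

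**Figure D3:**
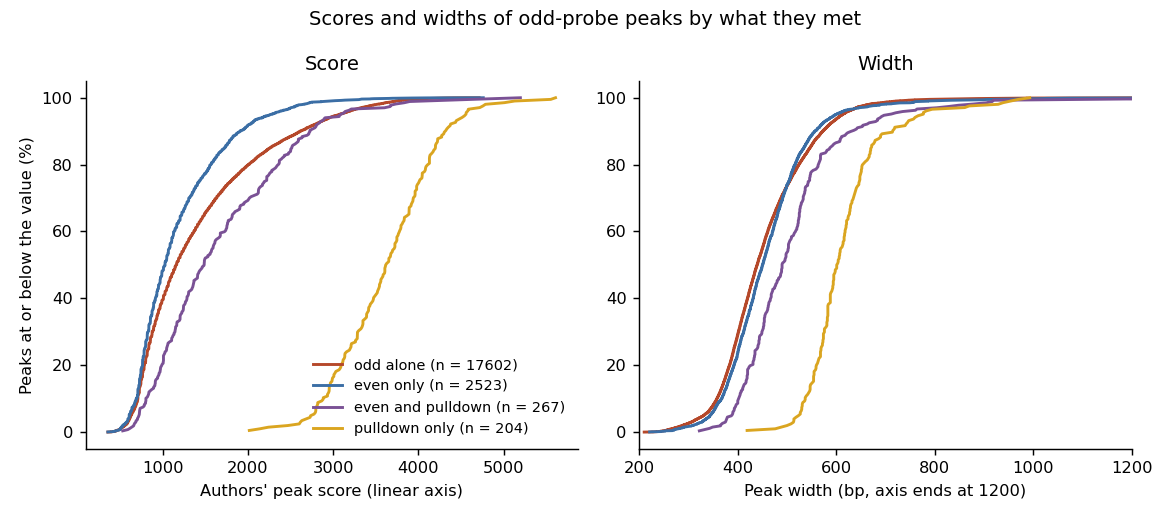
Cumulative share of peaks (vertical axis, %) at or below a given score (left) or width in bp (right), for odd-alone peaks and the classes of shared odd peaks. At the median the odd-alone score, 1164, lies between those of even-only peaks, 1027, and of peaks that met both lists, 1487. Pulldown-only peaks have a lowest score of 2016, within the range of odd-alone scores.

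Within the deposited odd list, odd-alone peaks were spaced much as shared ones were. That list lacks numbers, with a median of 8 missing between the odd peaks that flank an odd-alone peak. Any unlisted odd calls are not counted in the spacings below. The nearest other odd peak lay at a median of 35.7 kb (35.0 to 36.4), and for shared odd peaks the median was 35.8 kb (33.6 to 37.6). Another odd peak stood within 10 kb of 18.8% (18.2% to 19.3%) of odd-alone peaks and of 19.5% (18.1% to 20.9%) of shared ones, against 18.9% of all odd peaks. These intervals overlapped. With edges within 10 kb of an even or pulldown peak counted as shared, the shares were 15.6% (14.97% to 16.2%) and 26.9% (25.8% to 28.0%), and the intervals lay apart. That setting moves odd peaks with an even or pulldown peak nearby into the shared set. As bins rich in odd-alone peaks were also rich in even-alone peaks, that setting cannot show a difference in crowding between the classes. Under the main rule, another odd peak stood within 1 kb of 2.12% of odd-alone peaks and of 2.57% of shared ones. When odd-alone peaks no more than 10 kb apart were joined, 14745 remained single, 1224 runs held 2 peaks, 123 held 3 and 10 held 4. No run was longer.

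The 10 runs of 4 lay on 8 chromosomes, and 5 of them enclosed no even peak. The one with the highest single score, 3951, was chr15:97159738-97174824, 15.1 kb long. The most compact was chr8:122278209-122287119, 8.91 kb long, with scores from 799 to 3147 and no even peak inside. At chr5:123180501-123192832 the run enclosed 2 even peaks, none of which touched its members. Chromosomes 12 and 3 had 2 such runs each. Those of chromosome 12, chr12:113711273-113733077 and chr12:114036870-114059844, enclosed 1 even peak each.

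On the scale of 1 Mb the peaks were uneven. The 2535 bins that held an even or odd peak had a median of 6 odd-alone peaks (quartiles 4 and 9), 28 bins held none, and the highest held 34. The variance over the mean was 2.25, where counts that vary only by Poisson counting have a ratio of 1. It was higher, 2.70, for even-alone peaks, those that met neither an odd nor a pulldown peak. For shared odd peaks, whose mean per bin was lower (1.18 against 6.94), it was 1.35. The ratio depends on the mean as well as on unevenness, so 1.35 and 2.25 do not rank these classes by unevenness. The densest bins were at 96 to 97 Mb of chromosome 3 with 34 odd-alone peaks, at 113 to 114 Mb of chromosome 12 with 28 and at 95 to 96 Mb of chromosome 3 with 27. Even-alone peaks numbered 23, 33 and 32 in these bins. The bin of chromosome 12 had low-scoring members, with a median score of 682.5 and a highest of 1880, whereas the densest bin of chromosome 3 had a median of 1223.

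Bins rich in odd-alone peaks were also rich in even-alone peaks. Spearman's rho over the bins was 0.557, and within single chromosomes other than Y it ran from 0.368 to 0.659 with a median of 0.536. Bins of both lists share the genome sequence, the cells and the processing, and no peak is counted in both classes. The 102 bins with 15 or more odd-alone peaks held 1780 members with a median score of 1062 (1028 to 1101), against 1165 (1126 to 1205) in bins with 1 to 4. They averaged 12.3 even-alone and 2.74 shared odd peaks, against 3.61 and 0.715 in the sparse bins. Bins with 5 to 9 and with 10 to 14 had medians of 1169 and 1165, so the lower scores were seen in the densest group only.

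Density by chromosome ran from 8.90 odd-alone peaks per Mb on chromosome 15 (8.33 to 9.51) and 8.89 on chromosome 19 (8.14 to 9.69) to 6.13 on chromosome 4 (5.75 to 6.54), 3.78 on chromosome X (3.48 to 4.09) and 1.88 on chromosome Y, where there were 5 peaks. Over all chromosomes it was 6.86 per Mb of called span. Chromosomes 9, 11 and 5 followed the highest pair with 8.27, 8.23 and 7.86. The interval of chromosome X lay below those of all other chromosomes except Y. MEL cells are an established line whose chromosome copy numbers were not given in the sources used here, and the part of copy number in these densities was not tested.

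Chromosomes dense in odd-alone peaks tended to be dense in numbered odd calls, with Spearman's rho 0.713 over the 20 chromosomes without Y, and in even-alone peaks, with rho 0.842. Chromosomes share their sequence and copy number between these counts, and odd-alone peaks are among the numbered odd calls. Between the first and last listed odd peak, chromosome X had 26.9 odd numbers per Mb, chromosome 15 had 57.4 and chromosome 19 had 58.0, against 47.0 over all chromosomes. Per 100 numbered calls, odd-alone peaks therefore spread over a narrow range, 14.05 on chromosome X, 15.5 on chromosome 15 and 15.3 on chromosome 19. Without chromosome Y, density per Mb differed 2.36-fold between the highest and the lowest chromosome, and the count per 100 numbered calls differed 1.29-fold. The highest value was on chromosome 3, with 17.0 (16.1 to 17.9), and the lowest on chromosome 4, with 13.2 (12.4 to 14.01). All listed odd peaks, shared ones included, had the same extremes, 19.4 per 100 numbered calls on chromosome 3 and 15.5 on chromosome 4, a 1.26-fold difference. Chromosome 3 had 44.6 numbered calls per Mb, below the value over all chromosomes, and the interval of its count per 100 did not overlap that of any other chromosome except 15, 19 and Y.

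**Figure D4:**
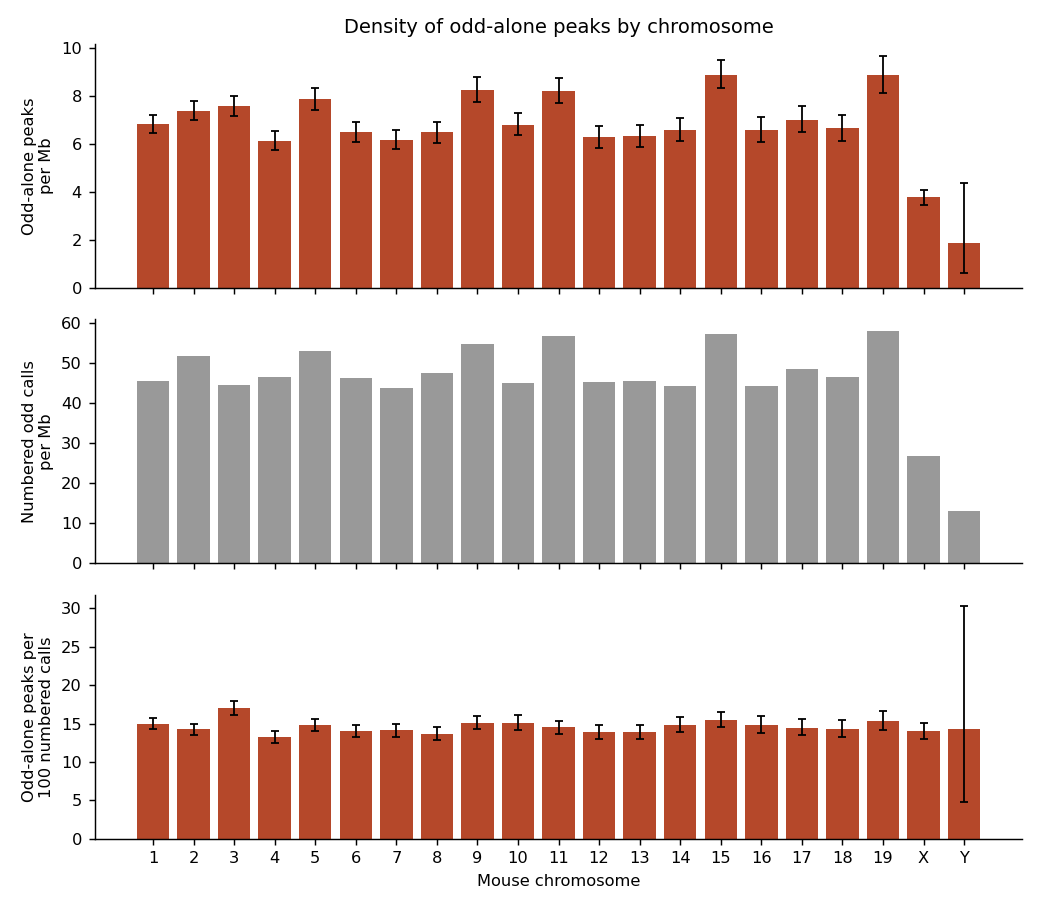
Odd-alone peaks per Mb (top), numbered odd calls per Mb (middle) and odd-alone peaks per 100 numbered calls (bottom) for each mouse chromosome (horizontal axis), with 95% counting intervals in the top and bottom panels. Chromosome X is low at the top and in the middle but not at the bottom, where chromosome 3 is highest with 17.0.

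The split between odd-alone and shared peaks varied little between chromosomes, from 82.4% odd-alone on chromosome 15 (80.0% to 84.6%) to 87.7% on chromosome 8 (85.4% to 89.7%), leaving out chromosome Y with 7 odd peaks. Median scores of odd-alone peaks, also without chromosome Y and its 5 members, lay between 1062 on chromosome 19 (1009 to 1151) and 1205.5 on chromosomes 6 and 18. Shared odd peaks had the higher median on chromosomes 1, 11, 16 and 19, and odd-alone peaks had it on all others. Odd-alone peaks outnumbered even-alone peaks 1.15-fold over the genome, close to the 1.14-fold ratio of the whole odd list to the whole even list. The ratio of odd-alone to even-alone peaks was lowest on chromosome 15 (892 against 886, or 1.01, where the lists stood at 1.02) and highest on chromosome 14 (769 against 580, or 1.33, where the lists stood at 1.27).

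The distance to the nearest even peak had a median of 40.7 kb (39.7 to 41.8) for odd-alone peaks, with quartiles of 15.9 and 89.7 kb and a longest of 1559 kb. The same measure for shared odd peaks, taken to the nearest even peak that did not overlap them, was 41.1 kb (38.6 to 43.2). An even peak lay within 10 kb of 17.0% (16.4% to 17.5%) of odd-alone peaks, and a further, non-overlapping even peak within 10 kb of 17.3% (15.96% to 18.7%) of shared ones. Over all odd peaks that share was 17.0%. The intervals overlapped for both measures. They cover only the counting of peaks, and no difference in nearness to even peaks was tested.

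Near misses can be counted only for the even peaks that are listed. In the flanking 1 kb, odd-alone peaks had 10.4 even peaks per Mb of flank (9.39 to 11.5), and from 50 to 100 kb they had 9.06 (8.92 to 9.20). The values between ran from 9.10 to 9.94. The closest flank was thus above the far one by a small amount, with intervals that did not overlap. Other odd peaks showed 10.7 per Mb (9.60 to 11.8) in the first 1 kb and 10.1 (9.94 to 10.2) from 50 to 100 kb, with intervals that overlapped. At 1 to 2 kb they showed 11.6 (10.5 to 12.8), which lay above the far value without overlap. Around shared odd peaks the even values were 10.02 (7.65 to 12.9) and 9.62 (9.27 to 9.98).

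**Figure D5:**
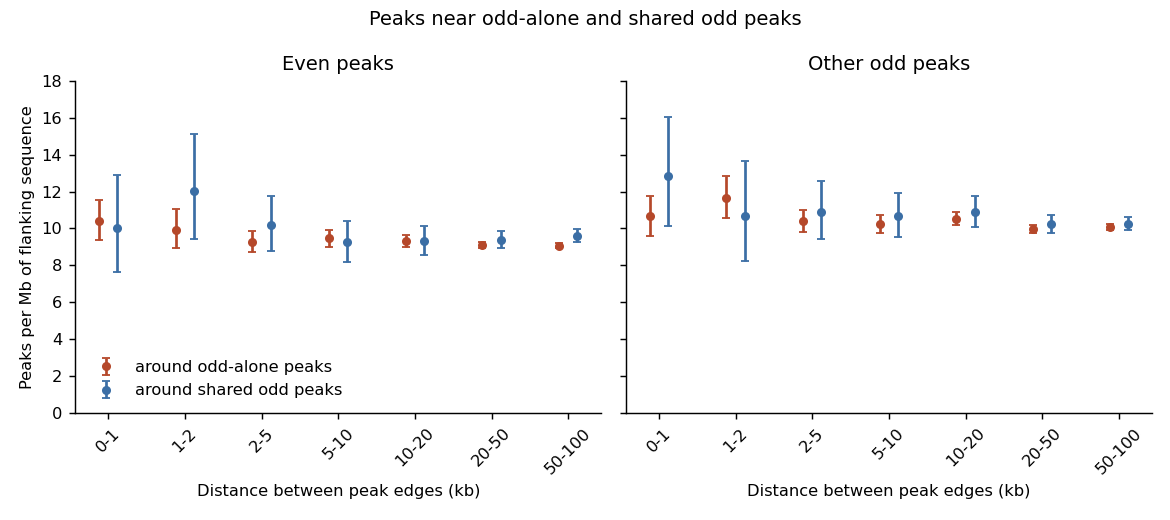
Even peaks (left) and other odd peaks (right) per Mb of flanking sequence (vertical axis) by distance between peak edges in kb (horizontal axis), around odd-alone and shared odd peaks, with 95% counting intervals. All points lie between about 9 and 13 per Mb, and even peaks around odd-alone peaks go from 9.06 at the far end to 10.4 in the first kb.

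Distance to an even peak had almost no relation to score. Spearman's rho between them was 0.027 over the 17602 odd-alone peaks. The median score was 1165 (1067 to 1285) for the 325 members more than 100 bp and up to 1 kb from an even peak and 1165 (1145 to 1203) for the 3830 beyond 100 kb. The 38 members within 100 bp had a median of 1047.5 (856 to 1427). Between the score of an odd-alone peak and that of its neighbouring even peak, rho was 0.140 in these 38 and -0.057 in the 325 at 100 bp to 1 kb.

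At the edge of the rule, the member nearest to an even peak was chr11:78737766-78738129 with a score of 950, which abutted an even peak with 0 bases between them. The next were chr12:119194866-119195478 (score 3223, 7 bases away), chr1:43633901-43634375 (score 1427, 9 bases), chr2:181356777-181357181 (score 1126, 11 bases) and chr11:62901041-62901513 (score 753, 13 bases). Just outside it were shared peaks that overlapped an even peak by little. They were chr8:66682814-66683307 by 1 bp, chr13:81536725-81537134 by 2 bp, chr17:88710421-88711013 by 14 bp, chr10:114731177-114731576 by 17 bp and chr7:121305978-121306459 by 25 bp, with scores of 1996, 970, 1512, 800 and 1730.

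Control lists held 124 peaks without probes, 141 with RNase and 270 in the input. No odd-alone peak met a no-probe or RNase peak, and 1 met an input peak. It was chr9:123782128-123782427, with a score of 595 and rank 19911, over the input peak chr9:123782249-123782325. A control peak of any kind lay within 10 kb of 0.312% (0.235% to 0.407%) of odd-alone peaks, or 55 of them, and of 0.282% of all odd peaks. The corresponding share of shared odd peaks was 0.100% (0.021% to 0.293%), or 3 peaks. The intervals overlapped. Peak numbers run on without gaps in the lists made without probes and with RNase. Numbers are missing from the input list, whose 270 peaks are numbered up to 599, and from the odd list. The lengths of the control lists and of the odd list are therefore not comparable. The control lists are short, and the rule for listing odd peaks was not given. The overlaps counted here therefore do not measure background among odd-alone peaks.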

How the data were processed

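Per the labels, ChIRP-seq libraries of MEL cells were sequenced without strand information. Per the submitters' processing notes, Bowtie2 and bedtools were used with mouse build mm9. Versions, peak caller and thresholds were not given in the sources used here. In each deposited list a peak has a position and the authors' score. Reads behind a peak are not listed, and the depth behind each value is therefore unknown. The deposited consensus list was not used.

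Odd peaks were classed by overlap of 1 bp or more. Files were read as counting from 0 and positions are given from 1. Gaps are bases between peak edges. Called span is the range of positions in any list, and 1-Mb bins go by peak start. Intervals are exact binomial (shares), exact Poisson (densities) or from binomial order statistics (medians). No difference was tested, as members were chosen by overlap and each condition has 1 library. The overlap code was tested on simulated data. Regions named were the 10 highest members, the 3 highest of chromosome 11, the 3 widest, the 5 on each side of the rule, the 3 densest bins and members meeting a control peak. Additions are named as such. The 100 highest members, the runs of 4 and further chromosomes were also chosen with values known. Members and lists were chosen with earlier results of these data known. Genes and sequences at the peaks were not analysed here, as no mm9 genome was used. Tools were Python 3.11.15, numpy 2.4.6, pandas 2.3.3, SciPy 1.17.1 and matplotlib 3.10.9.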

Additional observations from a re-analysis of the deposited data

How the results depend on the processing

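Of 89 alternative values for the main results, 58 stayed within the interval of the reported value, or within 1.5 times the reported count. The share of odd peaks that were odd-alone was 84.5% with midpoints within 1 kb counted as shared, 70.8% with edges within 10 kb, 86.5% against the even list alone, 86.6% in the top 50% of odd peaks by score (8995 peaks) and 86.8% against the top 50% of even peaks. The median score of shared odd peaks was 1048.5 against the even list alone, with odd-alone peaks at 1165. Against the top 50% of even peaks it was 1126 (1106 to 1164), with odd-alone peaks at 1148 (1141 to 1165), and these intervals overlapped. In the top 50% of odd peaks the median scores were 1773 (1759 to 1801) odd-alone and 1718 (1658 to 1760) shared, with intervals that overlapped. Median widths there were 493 bp odd-alone and 513 bp shared, and 9.51% and 10.3% had another odd peak within 10 kb. With edges within 10 kb counted as shared, shared width was 448 bp (454 bp against the even list alone), crowding was 15.6% odd-alone and 26.9% shared, and the distance to an even peak was 53.5 kb, with 0 peaks within 10 kb by construction. The crowding values of this setting also depend on its moving peaks near even peaks into the shared set. With midpoints, 16.02% of odd-alone peaks were within 10 kb of an even peak. Against the top 50% of even peaks this was 9.05%, at a median of 82.1 kb, as fewer even peaks were left. At limits of 1 kb and 100 kb, another odd peak was near 2.12% and 82.6% of odd-alone and 2.57% and 82.5% of shared peaks, and an even peak near 2.06% and 78.2% of odd-alone peaks. Odd-alone peaks with no even number missing, an alternative added after seeing the data, had median scores of 1139 and widths of 426 bp. Per bin with peaks in place of span, chromosome 7 moved to 6.74 and chromosome X to 4.11. As the lists hold no reads, how depth in the odd, even and pulldown libraries bears on membership was not tested. No paired analysis was possible because each condition has 1 library.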

Other observations

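Some bins held many more odd-alone peaks than even peaks. At 37 to 38 Mb of chromosome 5 there were 21 odd-alone peaks, 7 even-alone peaks and no shared odd peak, with a highest odd score of 4253. At 89 to 90 Mb of chromosome 3 there were 21 odd-alone and 9 even-alone peaks, the latter among 12 even peaks. Bins with 15 or more odd-alone peaks averaged 12.3 even-alone peaks. Of the 15 bins with most odd-alone peaks, 6 were on chromosome 3, between 89 and 103 Mb. On chromosome 9, the bin at 21 to 22 Mb had 26 odd-alone peaks with a median score of 1417.5, the highest median among those 15 bins. These bins were chosen after their values were seen.

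The odd list also lacks numbers between its own peaks. A median of 8 odd numbers was missing between the odd peaks that flank an odd-alone peak (quartiles 4 and 13), and at 519 of 17566 members, or 2.95%, none was missing.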
